A study of Bos taurus with 147 samples.

Results

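The longissimus muscle of newborn calves was compared between sire breeds on 3 two-colour cDNA microarrays, of 147 samples in the series. These were all the arrays whose labels put a Piedmontese x Hereford newborn against a Wagyu x Hereford newborn, replicates 1 to 3, with the Piedmontese cross in Cy5 and the Wagyu cross in Cy3 on each. Every calf had a Hereford dam, and all newborns were female. Per the study's methods, the Piedmontese sires were homozygous for a missense mutation of the myostatin gene GDF8 and the Wagyu sires did not carry it. The Piedmontese-sired calves were therefore heterozygous at this locus and also differed from the Wagyu-sired calves in the rest of the sire genome, so that effects of the mutation and of the breed cannot be told apart. There were 3 newborns of each sire breed, killed within a day of birth, and the labels do not tie an array number to an animal. The breed difference is given throughout as the log2 ratio of Piedmontese-sired over Wagyu-sired calves after the median of each array was set to 0, so that a positive value is a higher level in Piedmontese-sired calves.

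Myostatin is a secreted factor that restrains muscle growth, and cattle with little active myostatin have heavy muscling with more fast glycolytic fibres, little fat and little connective tissue. Wagyu cattle are known for marbling, the deposition of fat within the muscle. Around birth the number of muscle fibres is already set, and the fibres enlarge and accumulate contractile proteins and glycolytic enzymes. GDF8 itself had no probe under its name in the table used here.

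The same crosses were also joined in a closed loop of 25 arrays through 3 fetal ages (d 60, d 135 and d 195 of gestation) and the newborns, with all arrays of a link in the same dye orientation. A linear model over the loop (limma, with a term for the dye) gave the test of each feature, where a feature is either a named gene, averaged over its array elements, or an element without a gene name. Of 16659 features tested, 975 were named genes. Per the study, probes were printed in duplicate. Elements without a gene name were not merged, so a probe can count more than once and counts of features are not counts of transcripts. In this model the 3 newborn arrays carried a weight of 0.875 in the breed difference at birth, and the other links supplied the rest. The direction of the ratios follows the dye labels. The drawing of the hybridizations in the study and the signs of known changes between stages point the same way, but the table does not state it, so that it is likely rather than certain. The arrays hold ratios and no levels, so the purity of the muscle could not be checked from its defining genes, and fewer cells of a type cannot be told apart from less RNA per cell.

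The 3 newborn arrays differed widely from each other. Across 16043 features measured on all of them, arrays 2 and 3 had a Pearson correlation of 0.49, whereas array 1 had -0.20 with array 2 and 0.03 with array 3. These correlations are across genes, which are not independent replicates. The median absolute deviation of the log2 ratios was 0.289 on array 1, 0.569 on array 2 and 0.712 on array 3. Of 15983 tested features with a value on each array, 5230 (32.7%) had the same sign on all 3, 2811 positive and 2419 negative. Named genes leaned the other way, with 99 positive and 216 negative on all 3 of 955. Array 1 stood alone in sign for 6013 features, array 2 for 2922 and array 3 for 1818. Each group of genes is therefore given on each array before the estimate from the loop.

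**Figure D1:**
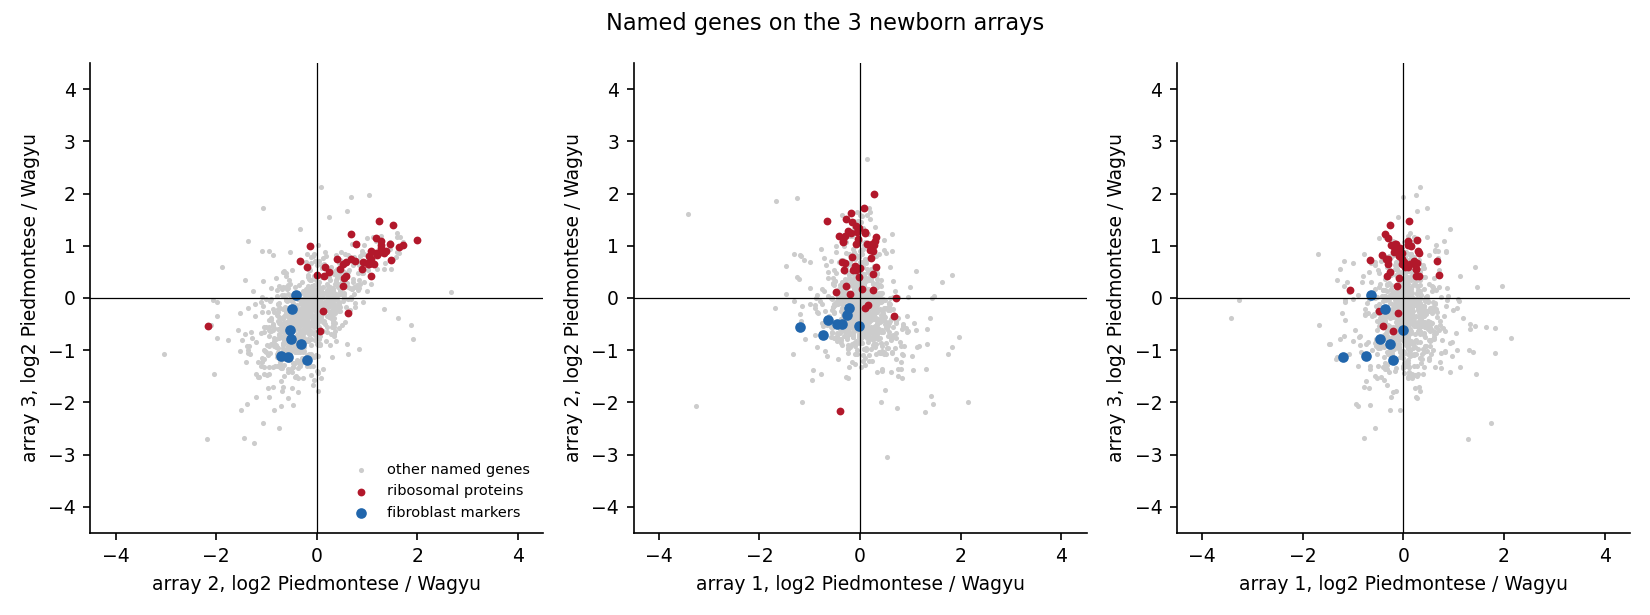
Log2 ratio of Piedmontese-sired over Wagyu-sired newborns for each named gene on one array (horizontal axis) against another (vertical axis), with ribosomal protein genes in red, fibroblast markers in blue and the other named genes in grey. On arrays 2 and 3 most ribosomal protein genes lie above 0 (43 and 45 of 49) whereas on array 1 they straddle it (21 of 49), and the 8 fibroblast markers lie below 0 on every array but for 1 value of 0.05 on array 3.

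Between newborns of the 2 sire breeds 46 of 16659 features (0.276%) passed at an adjusted p under 0.05 by limma, 14 of them (0.084%) higher and 32 (0.192%) lower in Piedmontese-sired calves. The unadjusted p was under 0.05 for 3344 features, or 20.1% (11% higher and 9.11% lower). Of the 46, 40 were elements without a gene name, 12 higher and 28 lower. Some of these had nearly the same values, such as 0.78, 2.00 and 1.12 beside 0.61, 2.00 and 1.12 on arrays 1 to 3. They may be duplicate spots, so the 40 are not 40 separate transcripts. The other 6 of the 46 were named genes (0.615% of 975): ATP5IF1 and SELENOW were higher (0.205%), and COL3A1, CTSC, FLVCR2 and LOC787045 were lower (0.41%). The count turned on single arrays. Without array 1 it was 2148 features (142 of them named) and the balance turned, with 1505 higher and 643 lower, without array 2 it was 0 and without array 3 it was 0, and the 3 newborn arrays fitted without the rest of the loop gave 1. Without the centring of the arrays, where the median of all features at birth was 0.17, it was 0. Higher calls also outnumbered lower ones with arrays weighted by their fit (321 and 130) and with a dye term shared with other arrays of these crosses (488 and 344).

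ATP5IF1 encodes the inhibitor that keeps the mitochondrial ATP synthase from running in reverse. Its log2 ratios on arrays 1 to 3 were 0.63, 1.23 and 0.92, above 0 on each. The loop gave 0.90 (SE 0.18, adjusted p = 0.0355 from limma), a ratio of 1.87 between the breeds. SELENOW encodes selenoprotein W, a small selenium-containing protein abundant in muscle. Its log2 ratios were 0.47, 1.12 and 1.18, and the loop gave 1.00 (SE 0.20, adjusted p = 0.0355). For both genes array 1 gave the lowest of the 3 values but on the same side of 0 as the others. SELENOW was the only one of 13 measured selenoprotein and antioxidant genes to pass.

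COL3A1 encodes the chain of type III collagen, the fibrillar collagen of soft and growing connective tissue, and was measured by 66 array elements. As probes were printed in duplicate, these elements are not all separate probes. Its mean log2 ratios on arrays 1 to 3 were -0.74, -0.70 and -1.12. No element lay above 0 on arrays 1 and 3, and 4 of 65 did on array 2. The loop gave -0.94 (SE 0.16, adjusted p = 0.023 from limma), so that the level in Piedmontese-sired calves was 0.523 of that in Wagyu-sired calves. Both crosses had far less COL3A1 at birth than at d 195. The log2 ratio of newborn over d 195 lay between -4.07 and -2.67 on the 3 Piedmontese arrays and between -2.63 and -2.42 on the 3 Wagyu arrays. The change of the breed difference from d 195 to birth was -0.575 in the loop (SE 0.21, adjusted p = 0.204 from limma) and did not pass.

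CTSC encodes cathepsin C, a lysosomal dipeptidyl peptidase that activates serine proteases. Its log2 ratios on arrays 1 to 3 were -0.74, -0.71 and -1.60 (loop -0.97, SE 0.16, adjusted p = 0.023), and it was the only one of 20 measured genes of proteases, ubiquitin and the proteasome to pass. FLVCR2, a membrane transporter, had -1.09, -0.80 and -1.07 (loop -0.97, SE 0.19, adjusted p = 0.0355). LOC787045 is annotated as a pseudogene by RefSeq, so that its signal on a cDNA array cannot be separated from that of a related transcript, and it had -0.85, -0.94 and -0.74 (loop -0.86, SE 0.17, adjusted p = 0.0355). In each of these 3 genes all arrays lay below 0, and array 1 was not nearer to 0 than both of the others.

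Each of the 6 genes kept its sign under all 26 alternative settings in which it was fitted, and passed the test in 16 (LOC787045) to 19 (COL3A1, CTSC) of them, with adjusted p-values of up to 0.526. The kept sign is no support for these genes. MYH1, with both signs among its arrays and an adjusted p of 0.654 by limma, also kept its sign throughout. Some of the settings were chosen after seeing the data. Larger estimates occurred with larger errors. Among genes of one sign on all arrays the lowest estimate was that of PCYOX1, a prenylcysteine oxidase, with -0.77, -1.45 and -2.67 on arrays 1 to 3 (loop -1.46, SE 0.35, adjusted p = 0.0645). Phospholamban (PLN), which restrains the calcium pump of slow muscle and heart, had -0.57, -0.75 and -2.49 (loop -1.31, SE 0.33, adjusted p = 0.0693). TMEM43, a membrane protein of the nuclear envelope, had -3.26, -2.07 and -0.04 (loop -1.24, SE 0.51, adjusted p = 0.198). PCYOX1 and PLN lay farthest from 0 on array 3 and TMEM43 on array 1.

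The highest estimate in this set was that of the ribosomal protein gene RPL22, with 0.28, 2.00 and 1.12 on arrays 1 to 3 (loop 1.05, SE 0.25, adjusted p = 0.0645). The exocyst subunit EXOC7 had 0.24, 1.04 and 1.98, the cell-cycle inhibitor CDKN1B 0.28, 0.60 and 1.67, and DEPP1, a regulator of autophagy, 0.34, 0.07 and 2.13. LOC784738, a pseudogene in the RefSeq annotation, had 0.20, 1.65 and 1.17. None of these 5 passed the test (adjusted p from 0.0645 to 0.119), and in all but DEPP1 array 1 gave the value nearest to 0.

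**Figure D2:**
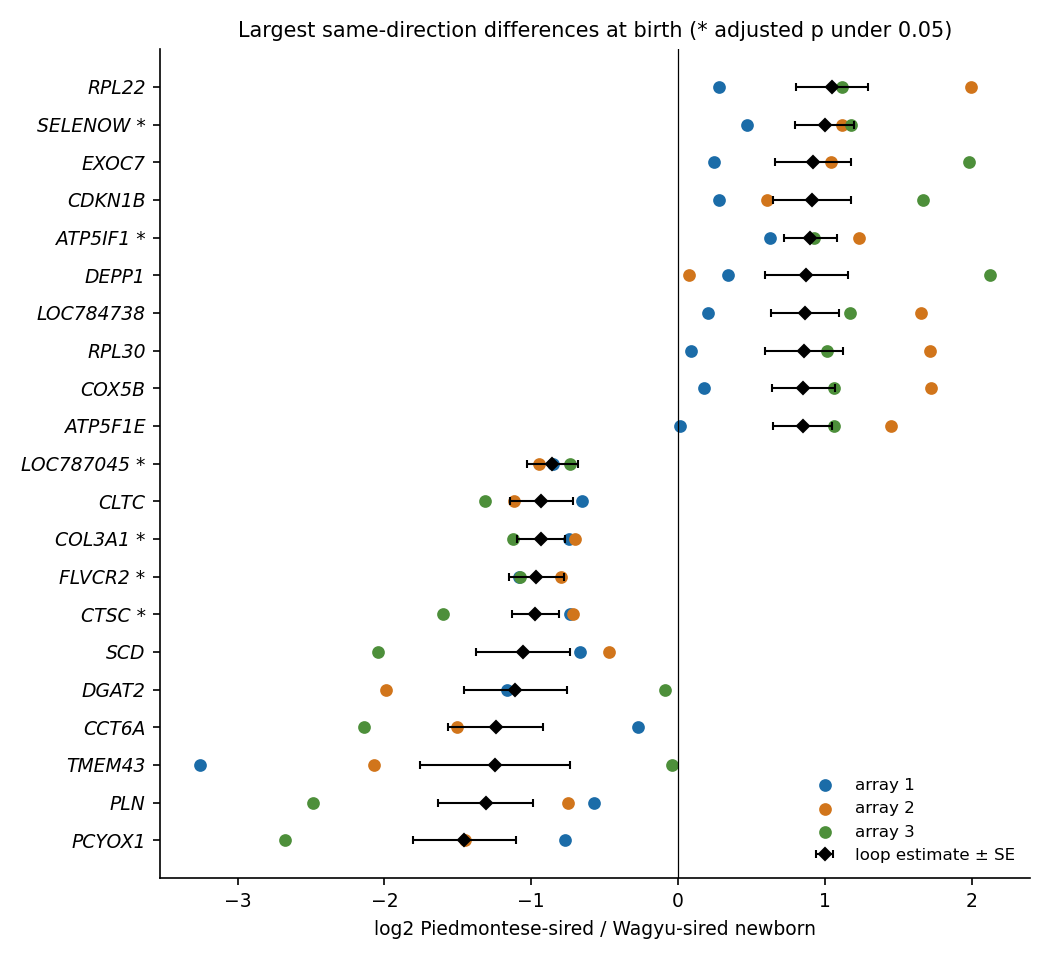
Named genes with the 10 highest and the 10 lowest estimates among those of one sign on all 3 newborn arrays, together with those that passed the test (asterisk). Coloured points are the log2 ratios on the 3 arrays and black diamonds the loop estimate with its standard error; genes that passed, such as LOC787045 (-0.85, -0.94 and -0.74), had closer arrays than PCYOX1 (-0.77, -1.45 and -2.67), which had the lowest estimate.

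Ribosomal protein genes had mostly positive values on arrays 2 and 3. The 30 measured genes of the large subunit, of 51 listed, had median log2 ratios of -0.09, 0.90 and 0.75 on arrays 1 to 3, and the 19 of the small subunit, of 34 listed, -0.02, 1.01 and 0.69, beside medians over all features of 0.01, 0.03 and 0.04 and over the named genes of 0.02, -0.17 and -0.25. On array 1 these genes were spread around 0, with 21 of 49 above it against 43 and 45 on arrays 2 and 3. The loop estimate had a median of 0.47 for the large and 0.49 for the small subunit, where the named genes had -0.07. No ribosomal protein gene passed the test at birth. At an unadjusted p under 0.05 there were 30 higher and 2 lower of the 49, where 9.33% of named genes were higher and 11.5% lower. Leaving out array 1 raised the loop medians to 0.77 and 0.76, and both stayed positive under the 26 alternatives, with lowest values of 0.31 and 0.35.

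On all 3 arrays 17 of the 49 ribosomal protein genes were positive and 1 negative, where 99 and 216 of 955 named genes were. The 6 genes given first were among those with the smallest p-values and do not stand for the group. RPL37A had 0.30, 1.08 and 0.91 on arrays 1 to 3 (loop 0.73, SE 0.20), RPL32 0.25, 0.90 and 0.55 (loop 0.63, SE 0.17) and RPL31 0.31, 1.17 and 0.86 (loop 0.76, SE 0.22). RPS25 had 0.09, 1.27 and 1.08 (loop 0.81, SE 0.20), RPS28 0.10, 1.24 and 1.47 (loop 0.84, SE 0.24) and RPS18 0.28, 1.01 and 0.66 (loop 0.67, SE 0.18). All 6 were positive on each array, with the lowest value on array 1. The 2 genes on the other side at an unadjusted p under 0.05 were RPL14, with -0.40, -2.17 and -0.53 (loop -0.92, SE 0.30), and RPL4, with -0.48, 0.12 and -0.26 (loop -0.35, SE 0.13). The adjusted p of these 8 genes lay between 0.0693 and 0.175. Ribosomal protein genes have many processed pseudogenes, and cDNA probes can cross-hybridize between close copies.

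For translation factors the values were nearer to 0. The 12 measured had medians of 0.13, -0.10 and -0.01 on arrays 1 to 3 and of 0.04 in the loop, which became -0.02 without array 1. EEF1B2, an exchange factor of elongation, had 0.06, 1.34 and 0.56 (loop 0.51, SE 0.24, adjusted p = 0.244), and EIF3M, a subunit of initiation factor 3, -0.21, 1.18 and 1.10 (loop 0.50, SE 0.21, adjusted p = 0.204). Both had their highest value on array 2.

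**Figure D3:**
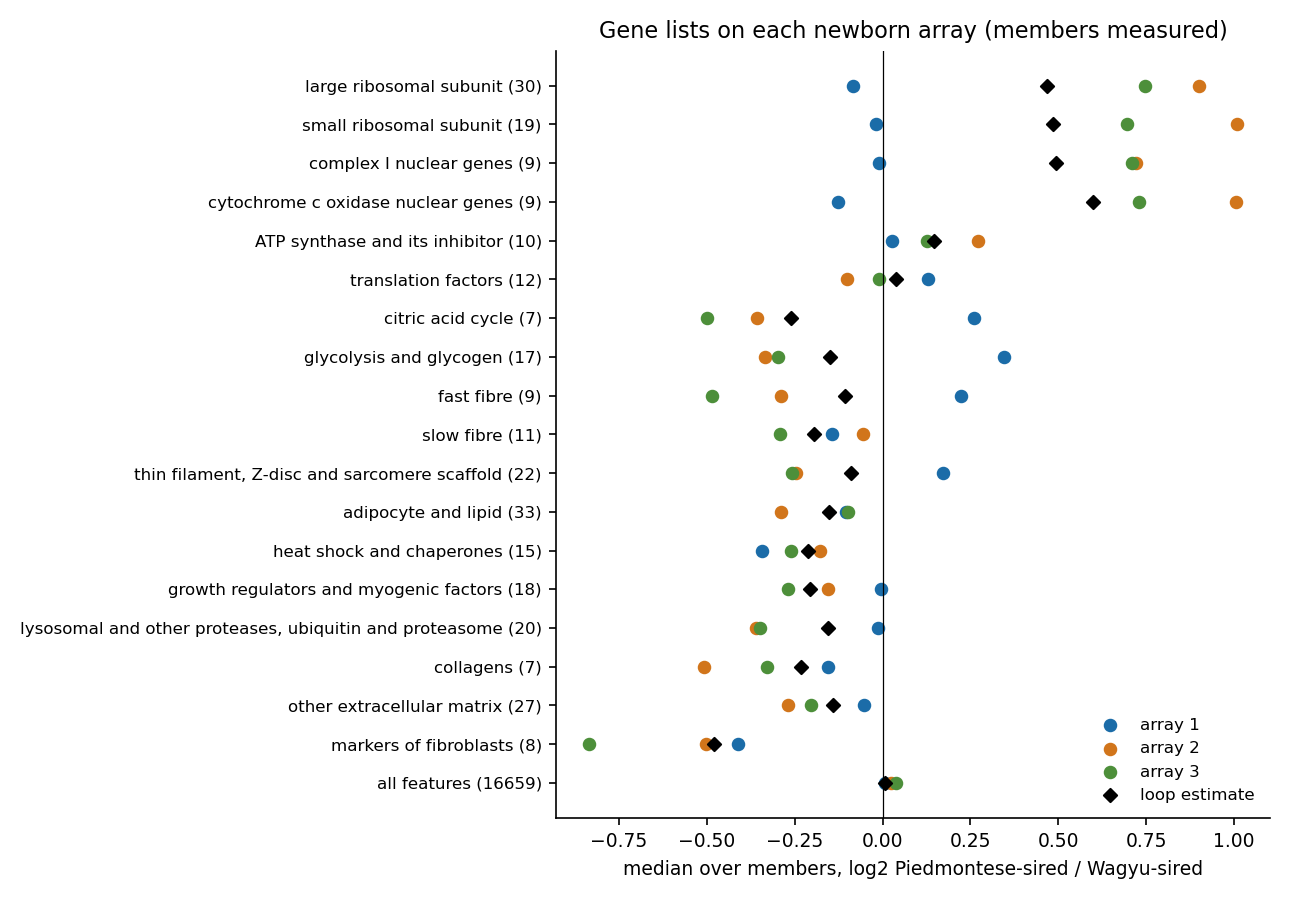
Median log2 ratio of Piedmontese-sired over Wagyu-sired newborns over the measured members of each gene list (number in parentheses), on each newborn array (coloured) and in the loop estimate (black diamond). Ribosomal, complex I and cytochrome c oxidase genes lie right of 0 on arrays 2 and 3 and near 0 on array 1, glycolytic and fast fibre genes change side between array 1 and the others, and fibroblast markers lie left of 0 on all 3 (-0.41, -0.50 and -0.83).

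Nuclear genes of the respiratory chain had positive medians on the same 2 arrays. The 9 measured genes of complex I, which takes electrons from NADH, had medians of -0.01, 0.72 and 0.71 on arrays 1 to 3 (loop 0.49), and the 9 of cytochrome c oxidase, which passes them to oxygen, -0.13, 1.00 and 0.73 (loop 0.60). At an unadjusted p under 0.05, 6 of 9 were higher and 0 lower in each list, where 9.33% and 11.5% of named genes were. None passed after adjustment. COX5B had 0.18, 1.72 and 1.06 (loop 0.85, SE 0.21, adjusted p = 0.0693), COX6C 0.19, 1.51 and 0.75 (loop 0.84, SE 0.21, adjusted p = 0.0693) and COX4I1 0.11, 1.00 and 0.73 (loop 0.60, SE 0.18, adjusted p = 0.104). In complex I, NDUFB3 had -0.01, 1.59 and 0.88 (loop 0.86, SE 0.21, adjusted p = 0.067), NDUFA6 -0.04, 1.46 and 0.94 and NDUFB9 0.07, 1.01 and 0.54. In each of these 6 genes array 1 was nearest to 0 and array 2 highest. COX7C had -0.36, 1.60 and 1.17, with array 1 on the other side.

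Within the ATP synthase the subunits diverged. The epsilon subunit ATP5F1E had 0.01, 1.45 and 1.06 on arrays 1 to 3 (loop 0.85, SE 0.20, adjusted p = 0.0645), coupling factor 6 (ATP5PF) -0.06, 1.64 and 0.86 (loop 0.87, SE 0.21, adjusted p = 0.0645) and subunit g (ATP5MG) -0.13, 0.88 and 0.63 (loop 0.52, SE 0.19, adjusted p = 0.163). The alpha subunit ATP5F1A, part of the catalytic head, lay on the other side with -0.30, -0.58 and -1.08 (loop -0.73, SE 0.24, adjusted p = 0.119), negative on each array. The 10 measured genes of the complex and its inhibitor had a loop median of 0.15, and ATP5IF1 was the only one to pass.

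The citric acid cycle, which feeds the chain, had 7 measured genes with medians of 0.26, -0.36 and -0.50 on arrays 1 to 3, positive on the first and negative on the others. IDH3A, the catalytic subunit of the NAD-dependent isocitrate dehydrogenase, had -0.66, -0.51 and -1.36 (loop -0.79, SE 0.21, adjusted p = 0.0797), and SDHD of succinate dehydrogenase -0.08, -0.36 and -0.26 (loop -0.26, SE 0.11, adjusted p = 0.202). Both were negative on every array. No gene of the mitochondrial genome was among the named genes.

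Fibroblast markers lay on the same side on all 3 arrays. Of the 8 measured, of 13 listed, 7 were negative on each array, and 7 had an unadjusted p under 0.05, all with a negative estimate, but only COL3A1 passed after adjustment. Their medians were -0.41, -0.50 and -0.83 on arrays 1 to 3 and -0.48 in the loop, beside 0.02, -0.17 and -0.25 on the arrays and -0.07 in the loop over the 975 named genes. The loop median stayed negative under the 26 alternatives, between -0.64 and -0.32.

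Fibrillin 1 (FBN1), the main protein of microfibrils, had -1.19, -0.56 and -1.14 on arrays 1 to 3 (loop -0.86, SE 0.22, adjusted p = 0.0712). COL1A2, a chain of type I collagen, had -0.46, -0.51 and -0.79 (loop -0.72, SE 0.31, adjusted p = 0.212), and COL1A1, the other chain, -0.02, -0.53 and -0.61 (loop -0.39, SE 0.32, adjusted p = 0.539). Fibronectin (FN1) had -0.27, -0.32 and -0.88 (loop -0.48, SE 0.20, adjusted p = 0.201). These 4 genes were negative throughout, COL1A1 on array 1 by very little. Vimentin (VIM), the intermediate filament of mesenchymal cells, had -0.36, -0.49 and -0.21 (loop -0.39, SE 0.12, adjusted p = 0.116), and the small proteoglycans lumican (LUM) and decorin (DCN) had -0.22, -0.20 and -1.18 and -0.64, -0.42 and 0.05, so that decorin on array 3 was the single positive value. The type I and type III collagen genes share sequence in their helical parts, so that their probes may not be independent.

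The wider matrix lists, which share members with the markers, were less uniform. The 7 measured collagen genes had medians of -0.15, -0.51 and -0.33 on arrays 1 to 3, with 5 negative on each array, and 1 passed, COL3A1, where 0.192% of all features were called lower. The 27 other matrix genes had medians of -0.05, -0.27 and -0.20, close to those of the named genes, and a loop median of -0.14. Without centring the loop median became 0.02, where that of the named genes became 0.09. Of the 27, 10 were negative and 1 positive on all 3 arrays, where 216 and 99 of 955 named genes were, and none passed. The positive one was MGP, matrix Gla protein, an inhibitor of calcification, with 0.32, 0.80 and 0.73 (loop 0.67, SE 0.19, adjusted p = 0.0961).

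Genes of fat storage and lipid use with one sign on all arrays were mostly negative. Of 33 measured 13 were negative and 2 positive on all 3 arrays, where 216 and 99 of 955 named genes were, and the medians were -0.10, -0.29 and -0.10. The loop median of -0.15 became 0.01 without centring, where that of the named genes became 0.09 from -0.07. At an unadjusted p under 0.05 there were 8 lower and 1 higher, where 11.5% and 9.33% of named genes were. None passed after adjustment. Stearoyl-CoA desaturase (SCD), which makes monounsaturated fatty acids, had -0.67, -0.47 and -2.05 (loop -1.06, SE 0.32, adjusted p = 0.108). DGAT2, which completes triglyceride synthesis, had -1.16, -1.99 and -0.09 (loop -1.11, SE 0.35, adjusted p = 0.118). SCD lay lowest on array 3, where DGAT2 was near 0.

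In the same list the mitochondrial thiolase ACAT1 had -0.90, -0.13 and -1.31 (loop -0.80, SE 0.20, adjusted p = 0.0709), and the cytosolic isocitrate dehydrogenase IDH1, a source of NADPH, -0.25, -0.52 and -0.65 (loop -0.47, SE 0.13, adjusted p = 0.0877). HADHB of mitochondrial beta-oxidation had 0.24, -1.20 and -1.90 (loop -0.93, SE 0.31, adjusted p = 0.124), and the fatty acid carrier FABP5 -1.003, 0.18 and -0.82 (loop -0.49, SE 0.23, adjusted p = 0.235). The first pair was negative on each array, whereas HADHB changed side on array 1. For FABP5 no element was positive on arrays 1 and 3, and on array 2 only 2 of 6 elements were, the highest at 1.66, with an element median of -0.22. The 7 measured adipocyte markers had medians of -0.04, -0.05 and -0.06 on the arrays and estimates from -0.42 to 0.16 in the loop, and none had an unadjusted p under 0.05. FABP4 is among them, at -0.03 in the loop. The study's quantitative RT-PCR, however, found FABP4 and FABP5 significantly higher in Wagyu-sired newborns, so the array values do not show that these genes were alike.

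The 15 measured chaperones had negative medians on all 3 arrays, -0.34, -0.18 and -0.26, and a loop median of -0.21. Without centring the loop median was -0.05, where that of the named genes was 0.09. Of the 15, 6 were negative and 0 positive on each array, where 216 and 99 of 955 named genes were, and none passed. CCT6A and CCT8, subunits of the cytosolic chaperonin that folds actin and tubulin, had -0.27, -1.51 and -2.14 (loop -1.24, SE 0.32, adjusted p = 0.0729) and -0.53, -0.28 and -1.54 (loop -0.85, SE 0.21, adjusted p = 0.0654). The constitutive cytosolic HSP70 (HSPA8) had -0.33, -0.58 and -1.37 (loop -0.85, SE 0.22, adjusted p = 0.0709), and HSPA5 of the endoplasmic reticulum -1.17, -0.44 and -0.42 (loop -0.71, SE 0.24, adjusted p = 0.137). The first 3 lay lowest on array 3 and HSPA5 on array 1. HSP90AB1 was split between the arrays, at 1.29, -2.19 and -2.70 (loop -1.10, SE 0.65, adjusted p = 0.352). Clathrin heavy chain (CLTC), which coats endocytic vesicles and is in none of the lists, was negative on each array, at -0.66, -1.12 and -1.31 (loop -0.93, SE 0.21, adjusted p = 0.0634).

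Of 18 growth regulators and myogenic factors none passed at birth. At an unadjusted p under 0.05, 1 was higher and 4 lower, where 9.33% and 11.5% of named genes were. Their loop median of -0.21 ranged from -0.47 to 0.03 over the alternatives. The muscle transcription factor MEF2C had -0.38, -0.06 and -1.57 (loop -0.64, SE 0.22, adjusted p = 0.138), the nuclear matrix protein matrin 3 (MATR3) -0.68, -0.50 and -1.73 (loop -0.87, SE 0.27, adjusted p = 0.113), and reticulon 4 (RTN4), measured by 64 elements, -0.52, -0.11 and -1.08 (loop -0.54, SE 0.16, adjusted p = 0.101). All 3 lay lowest on array 3 and nearest to 0 on array 2. The cell-cycle inhibitor CDKN1A had -0.10, 0.24 and 1.56 (loop 0.65, SE 0.24, adjusted p = 0.163).

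Glycolytic and fast fibre genes had opposite signs on array 1 and on the others. The 17 genes of glycolysis and glycogen metabolism had medians of 0.35, -0.33 and -0.30 on arrays 1 to 3, and the 9 fast fibre genes 0.22, -0.29 and -0.48. In the loop the medians were -0.15 and -0.11, of which the first became 0.01 without centring and the second 0.08 without array 3, and no member passed. Without centring the named genes had a loop median of 0.09. The fast myosin heavy chain gene MYH1 had 0.52, -0.46 and -0.56 (loop -0.21, SE 0.24, adjusted p = 0.654). PGAM2, the muscle phosphoglycerate mutase, had 0.21, 0.34 and 0.46 (loop 0.33, SE 0.14, adjusted p = 0.209) and was the only glycolytic gene positive on all arrays.

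The slow fibre list, with 11 measured genes, had medians of -0.14, -0.06 and -0.29. Carbonic anhydrase 3 (CA3), abundant in slow fibres and measured by 46 elements, had -1.32, -0.06 and -1.13 (loop -0.90, SE 0.24, adjusted p = 0.0824). ACTN2, a Z-disc crosslinker, had 0.11, -0.997 and -1.48, the LIM protein FHL1 0.02, -0.65 and -1.28, and the slow myosin-binding protein MYBPC1 0.48, -1.04 and -1.01. The last 3 were negative on arrays 2 and 3 and positive on array 1, while CA3 was close to 0 on array 2.

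Among 22 genes of the thin filament, the Z-disc and the sarcomere scaffold, with medians of 0.17, -0.25 and -0.26, none passed. Nebulin (NEB), which sets thin filament length, had -0.21, -0.47 and -0.85 (loop -0.58, SE 0.17, adjusted p = 0.1), and KLHL41, which stabilizes it, -0.02, -0.70 and -1.35 (loop -0.73, SE 0.29, adjusted p = 0.19). PDLIM7, a Z-disc adaptor, had 0.33, 0.47 and 0.53 (loop 0.39, SE 0.09, adjusted p = 0.0645), positive on each array with little spread. Adenylate kinase (AK1), which balances adenine nucleotides in working muscle, had 0.38, 0.85 and 0.64 (loop 0.57, SE 0.27, adjusted p = 0.25).

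Few markers of other cell types were measured. The 4 of endothelium and mural cells, of 17 listed, had medians of -0.23, -0.44 and -0.43 and the 5 of immune cells, of 20 listed, -0.07, -0.43 and -0.24, and none of either had an unadjusted p under 0.05. EGFL7, an endothelial gene, had -0.23, -1.06 and -1.004 (loop -0.70, SE 0.35, adjusted p = 0.267). The 8 markers of muscle fibres had medians of 0.27, -0.44 and -0.49. None of the listed genes of nerve, cartilage, epidermis or blood was among the named genes. The part of the proportions of cell types in the results above was not tested.

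Whether the breed difference at birth was that of earlier stages was asked within the loop, as a difference of differences. Per the study's record of animals, all d 60 fetuses of a cross had the same sire, and the newborns had other sires. The d 60 fetuses included a male, whereas all newborns were female. Stage therefore cannot be told apart from sire and sex in this contrast. From d 60 to birth the breed difference changed for 2198 features (13.2%), 876 (5.26%) towards higher and 1322 (7.94%) towards lower levels in Piedmontese-sired animals. Named genes made up 145 (14.9% of 975), 58 (5.95%) towards higher and 87 (8.92%) towards lower. Without centring the count was 798, with 56.6% rather than 39.9% of it towards higher, and without newborn array 1 or with weighted arrays it was 54.8% or 53.4%. In 2185 of the 2198 the estimates at the 2 stages had opposite signs. Features picked for a large difference between 2 estimates mostly have opposite signs by that choice. The number is therefore no evidence of a reversal. The d 60 arrays carried Wagyu in Cy5 and the newborn arrays Piedmontese, so this contrast rests on the dye term. Without that term 1842 features passed. In a closed loop that runs in one dye direction, however, both fits give nearly the same estimates (median over all features 0.024 with and 0.022 without). That number therefore cannot show how far the contrast depends on the dye. The count also depended on single arrays, at 3926, 1248 and 232 without newborn array 1, 2 or 3 and at 2705, 619 and 323 without d 60 array 1, 2 or 3.

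All 6 named genes that passed at birth also passed for this change, as did 45 of all 46 features called at birth. The change contains the birth estimate by which they were chosen, so this is no independent evidence. FLVCR2 had log2 ratios of 0.92, 0.52 and 0.75 on the 3 arrays of d 60 (change -1.67, SE 0.25, adjusted p = 0.00119 by limma), CTSC had 0.24, 0.52 and 0.34 (change -1.30, SE 0.21, adjusted p = 0.00276), and COL3A1 had 0.20, 0.16 and 0.19 (change -1.20, SE 0.21, adjusted p = 0.00399). For these 3 genes, and for LOC787045 with 0.23, 0.25 and 0.26, every d 60 value was positive and every newborn value negative. ATP5IF1 had 0.12, -0.47 and -0.92 (change 1.30, SE 0.24, adjusted p = 0.00484) and SELENOW -0.37, -0.40 and 0.17 (change 1.27, SE 0.26, adjusted p = 0.00908) at d 60, all below the values of the newborns.

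By group, where 5.95% of named genes changed towards higher levels and 8.92% towards lower, 26 of 49 ribosomal protein genes changed towards higher and 0 towards lower. Their loop median was -0.34 at d 60 (0.17, -0.53 and -0.67 on the 3 arrays), -0.09 at d 135, -0.03 at d 195 and 0.47 at birth. At d 60 array 1 lay on the other side of 0 from arrays 2 and 3, as at birth. Of complex I genes 4 of 9, of cytochrome c oxidase genes 3 of 9 and of ATP synthase genes 4 of 10 changed towards higher levels, and ATP5F1A was the only member of these 3 lists to change towards lower.

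Of the fibroblast markers COL3A1, FBN1 and FN1 changed towards lower levels. So did 5 of 33 lipid genes, SCD, ACAT1, IDH1, HADHB and ACLY, and 3 of 15 chaperones (CCT6A, CCT8 and HSPA8). In the list of growth regulators 4 of 18 did, MEF2C, MATR3, RTN4 and TXNIP. The study had named MATR3, RTN4 and TXNIP for sire breed on the same samples. These counts stand beside 7.94% of all features and 8.92% of named genes that changed towards lower. At the youngest stage, per the study's methods, skin was hard to separate from muscle, all RNA was amplified, and for MATR3 amplified and total RNA of that stage differed for an animal. The part of these in the changes was not tested, and none of the listed epidermis genes was among the named genes. In the slow fibre list CA3, ACTN2, FHL1 and MYBPC1 changed towards lower and TNNC1, the slow and cardiac troponin C, towards higher. PGAM2 changed towards higher and was the only glycolytic gene to pass.

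**Figure D4:**
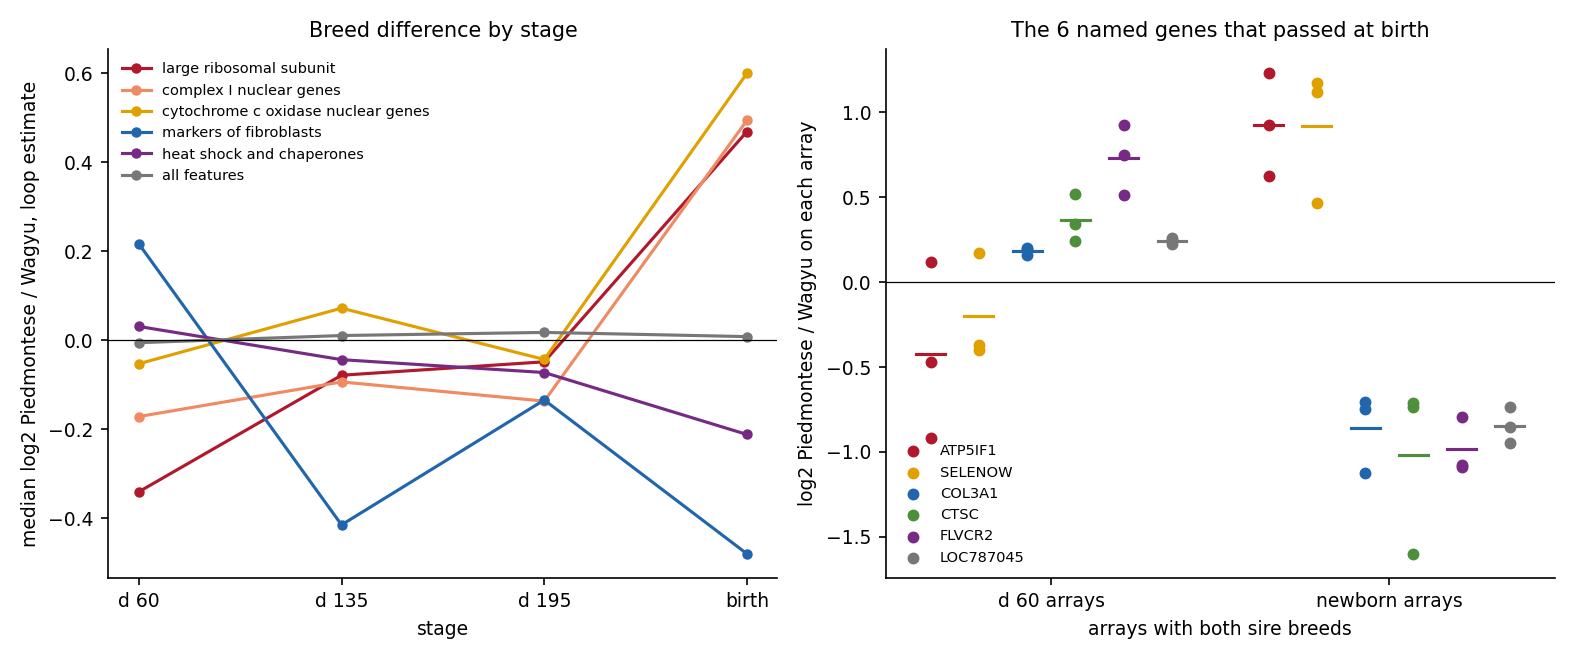
Left, median breed difference (log2 Piedmontese over Wagyu, loop estimate) of 5 gene lists and all features at each of 4 stages; the large ribosomal subunit runs from -0.34 at d 60 to 0.47 at birth and fibroblast markers from 0.22 to -0.48. Right, log2 ratio on each d 60 array and each newborn array of Piedmontese against Wagyu for the 6 named genes that passed at birth, with bars for the mean of 3 arrays.

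From d 195 to birth the change of the breed difference passed for 0 features by limma, with 2900 (17.4%) at an unadjusted p under 0.05, 8.76% towards higher and 8.65% towards lower. No array held both breeds at d 195. Per the study's record of animals, the d 195 fetuses included males, and those of the Piedmontese cross shared a sire and included twins. The part of sire and sex in this change cannot be told apart from that of stage. Leaving out array 3 of Wagyu newborn over d 195 gave 1219. The step from d 195 to birth, within a cross, was called for 6609 features (39.7%; 20.7% rose and 18.9% fell) in the Piedmontese cross and for 7436 (44.6%; 21.7% rose and 22.9% fell) in the Wagyu cross. These steps share newborn samples with the comparison at birth, so that the values below are set side by side and are no independent evidence.

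Ribosomal protein genes had median log2 ratios of newborn over d 195 of -0.25, -0.22 and -0.24 on the 3 Piedmontese arrays and of -1.06, -0.98 and -0.18 on the 3 Wagyu arrays. Thus Wagyu arrays 1 and 2 lay below all the others, and Wagyu array 3 did not. In the loop 9 of 49 fell in the Piedmontese cross and 38 in the Wagyu cross, where 18.9% and 22.9% of all features fell. The share in the Piedmontese cross was thus near that of all features. Cytochrome c oxidase genes had medians of 0.37, 0.32 and 0.47 on the Piedmontese and -0.54, -0.76 and 0.31 on the Wagyu arrays, and complex I genes 0.23, 0.06 and 0.33 and -0.51, -0.66 and -0.23. In both lists Wagyu array 3 was again the highest of the Wagyu arrays.

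Fibroblast markers were negative on every array of both steps, with medians of -1.85, -1.84 and -3.03 in the Piedmontese and -2.08, -1.68 and -1.94 in the Wagyu cross, and all 8 fell in each. Of 17 glycolytic genes 13 rose in the Piedmontese and 14 in the Wagyu cross, with medians of 0.86, 0.30 and 0.93 and 1.84, 1.08 and 0.63. Here Wagyu array 3 had the lowest of the Wagyu values.

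**Figure D5:**
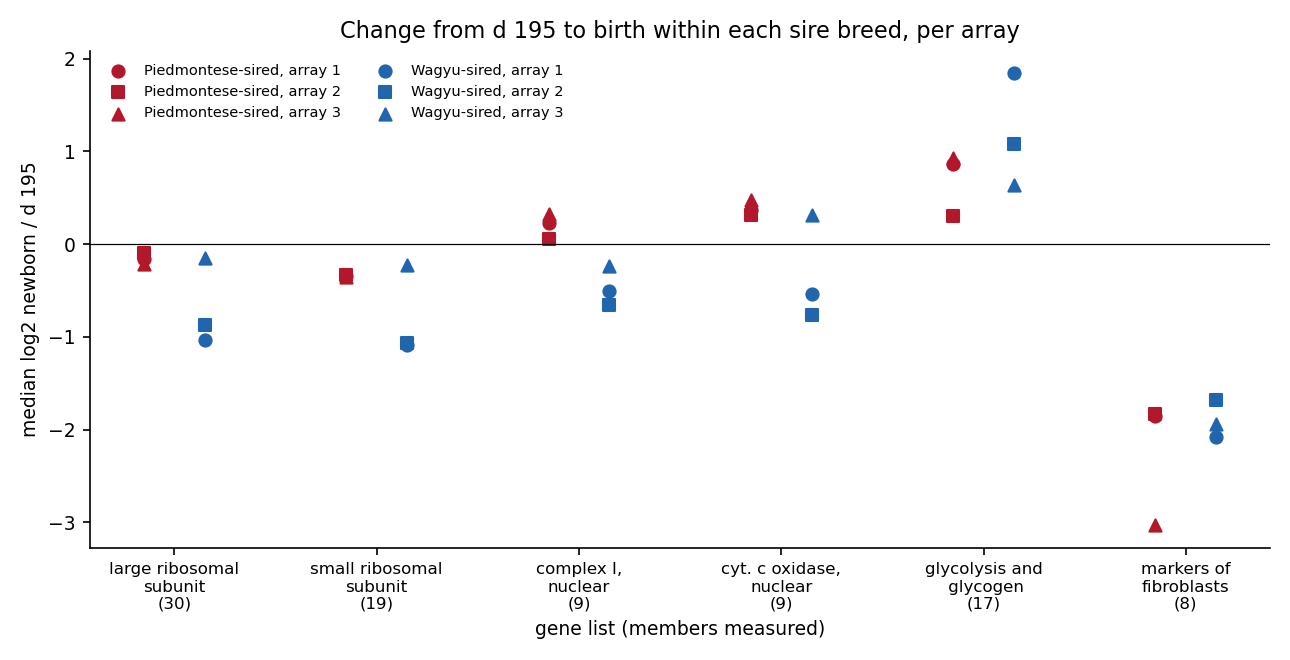
Median log2 ratio of newborn over d 195 muscle over the measured members of 6 gene lists (number in parentheses) on each of 3 arrays per sire breed (red, Piedmontese-sired; blue, Wagyu-sired; the symbol gives the array). In both ribosomal lists Wagyu arrays 1 and 2 lie below all Piedmontese arrays and Wagyu array 3 (triangle) lies within or above their range, and fibroblast markers lie at -1.68 or lower on all 6 arrays.

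In later longissimus muscle of the same crosses, 12 arrays of Piedmontese against Wagyu at the ages labelled T1 to T3, within a separate set of 20, called 725 of 17253 features (4.2%), 265 (1.54%) higher and 460 (2.67%) lower in the Piedmontese cross. With a replicate block the balance turned, with 489 higher and 37 lower. None of the 6 genes of the newborns was among them. COL3A1 had log2 ratios from -0.69 to 0.38 (median -0.19), positive on 3 of 12 arrays, and an estimate of -0.25 (SE 0.07, adjusted p = 0.0544 from limma). SELENOW had an estimate of 0.12 (SE 0.13) and CTSC of 0.26 (SE 0.09). Of the fibroblast markers COL1A1 (-0.46, SE 0.08), COL1A2 (-0.31, SE 0.08) and FN1 (-0.45, SE 0.08) were lower in later Piedmontese-sired muscle in the mean over T1 to T3. By age, the 8 measured markers had medians of 0.17 at T1, -0.31 at T2 and -0.29 at T3. COL3A1 had 0.14, -0.34 and -0.54, so that T1 lay on the other side of 0 in both. Ribosomal protein genes had a median of -0.16 in later muscle, with 0 of 49 higher and 4 lower.

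Of 76 genes that the study names for sire breed at any stage, 60 were among the named genes. At birth 1 of these 60 passed, COL3A1, and 11 were positive and 16 negative on all 3 arrays. At an unadjusted p under 0.05, 18 were higher and 16 lower, and for the change from d 60 to birth 17 passed towards higher and 14 towards lower. Those genes were chosen on the same samples, so their counts are not independent evidence of a difference.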

How the data were processed

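RNA of longissimus muscle was amplified as antisense RNA, which can alter the ratios of some transcripts, and hybridised to a cDNA microarray made from libraries of adult muscle and subcutaneous fat. The deposited values are log2 ratios, taken here as Cy5 over Cy3, which the authors made from background-corrected signals of scanned arrays. Further normalization is not given in the sources used here. The table held 21168 elements, of which 4490 had 1 gene name, 188 several and 16490 none, and 24 of its 70 columns were not used. The upper limit of 16.61 was treated as missing on 44, 175 and 63 elements of the 3 newborn arrays, leaving 20662, 20000 and 20641. The median of each array was set to 0, and elements of a gene were averaged. Names were updated through the entrez identifiers of RefSeq. Features with a value on 20 of 25 arrays were fitted with limma 3.58.1 in R 4.3.3 (groups plus a dye term, residual degrees of freedom 17), with Benjamini-Hochberg adjustment at 0.05 over 16659 features. Code was tested on simulated data. Named in the text are the genes that passed, the 10 highest and 10 lowest estimates of one sign on all 3 newborn arrays, the smallest p-values of each list, and further list members. The members and lists were chosen with earlier results of these data known. The number of arrays limits the precision, and p-values rest on the spread between these samples. In the loop this spread is pooled over all links, so that COL3A1 had an SE of 0.16 at birth and at d 60 alike. The p-values at birth therefore do not measure the spread of the 3 newborn arrays by themselves. CTSC and LOC787045 both passed, with standard deviations over those arrays of 0.51 and 0.10 and SEs of 0.16 and 0.17. Alternatives covered the dye term, centring, scaling, filters, weights, single elements and left-out arrays.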

Additional observations from a re-analysis of the deposited data

Results flagged for a closer look

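The breed difference at birth differed from that at d 60 for 2198 features, by a test of the difference itself in the loop (limma, adjusted p under 0.05), and every value below passed that test. Each value is the log2 breed difference at birth minus that at d 60, so that a negative value is a move towards lower levels in Piedmontese-sired animals. The birth estimate is part of each value, so for genes chosen at birth the value is no independent evidence. The 6 genes that differed at birth had -1.67 for FLVCR2, -1.30 for CTSC, -1.20 for COL3A1, -1.12 for LOC787045, 1.30 for ATP5IF1 and 1.27 for SELENOW. Among ribosomal protein genes the change was 1.39 for RPL22, 0.90 for RPL32, 1.21 for RPL37A, 1.01 for RPS18, 1.20 for RPS25 and 0.98 for RPS28. In the respiratory chain, the ATP synthase and the citric acid cycle it was 1.03 for NDUFB3, 1.16 for NDUFA6, 0.87 for COX5B, 1.17 for COX6C, 1.06 for ATP5F1E, 1.11 for ATP5PF, 0.79 for ATP5MG, -1.28 for ATP5F1A and -0.96 for IDH3A. Lipid genes had -1.92 for SCD, -1.31 for ACAT1, -0.77 for IDH1 and -1.33 for HADHB. Matrix genes had -1.40 for FBN1 and -0.85 for FN1. Among chaperones it was -1.93 for CCT6A, -1.30 for CCT8 and -1.19 for HSPA8. The muscle transcription factor MEF2C had -1.27, MATR3 -1.62 and RTN4 -0.83. Muscle genes had -1.34 for NEB, -1.21 for KLHL41, -1.66 for PLN, -1.02 for CA3, -1.45 for ACTN2, -1.14 for FHL1, -1.19 for MYBPC1, 0.48 for PDLIM7 and 0.62 for PGAM2. Genes outside these lists had -1.56 for CLTC, -2.33 for PCYOX1 and 1.08 for LOC784738. For MATR3 amplified and total RNA of the earlier stage differed for an animal, per the study, and the part of this in its value was not tested. With 3 arrays at each stage in opposite dye orientation, no array holds both stages, and the counts without single arrays stand in the report. Sires and sexes also differed between the stages, and their part was not tested.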

How the results depend on the processing

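At birth 46 features passed; the count was 1 with the newborn arrays alone, 832 with a common dye term over 46 arrays, 0 without centring, 116 with values required on all 25 arrays, 451 with arrayWeights and 238 with elements fitted one by one. For the change from d 60 (2198) it was 798 without centring and 4847 with arrayWeights. For the change from d 195 (0) it was 331 with a common dye term, 13 with values at the upper limit kept, 25 with all arrays required, 1029 with arrayWeights and 12 with single elements. Leaving out 1 newborn array gave 0 to 2148 features at birth, 232 to 3926 for the change from d 60 and 0 to 119 for that from d 195; leaving out 1 replicate number of every link gave 0 to 1372, 0 to 3553 and 0 to 0. Leaving out 1 array of another link, chosen after seeing the data, gave 35 to 448 at birth (the highest without array 3 of Wagyu newborn over d 195, with 240 higher and 208 lower), 323 to 3497 for the change from d 60 and 0 to 1219 for that from d 195. For later muscle (725) the count was 343 without centring, 370 without a dye term and 14 to 319 without 1 replicate number. With a replicate block it was 0 at birth, 1534 and 0 for the changes from d 60 and d 195, and 526 in later muscle. A sample shared by adjoining links is Cy3 on one and Cy5 on the next, so that a shared animal gives a negative correlation of deviations. Over 24 pairs of same-numbered arrays this ran from -0.66 to 0.52, below -0.1 in 15 and over 0.1 in 5, so that the numbers may pair animals on some links and not on others. Between the newborn arrays and those of Piedmontese newborns every number paired best with itself (-0.17, -0.50 and -0.25); towards Wagyu newborns over d 195 number 2 did (-0.49), and numbers 1 and 3 were lowest crosswise (-0.71 and -0.59). The fit takes arrays as independent, and an intercept for each number does not remove an animal shared in opposite dyes. The cause of these differences was not tested.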
